A study of Mus musculus with 54 samples.

Results

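Prostaglandin E2 synthesis and its receptors were followed through 9 mouse genes across clones of the 4T1 mammary carcinoma line and 4 specimens of 4T1 growth in mice. The genes were taken by name: Pla2g4a, Ptgs1, Ptgs2, Ptges, Ptges2, Ptges3, Ptger2, Ptger4 and Hpgd. All 9 were found among the 23481 gene rows of the normalized table.

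Prostaglandin E2 is a lipid signal made from arachidonic acid. Pla2g4a, the cytosolic phospholipase A2, frees arachidonic acid from membranes, and the cyclooxygenases Ptgs1 (COX-1) and Ptgs2 (COX-2) turn it into prostaglandin H2. The synthases Ptges (the inducible microsomal enzyme), Ptges2 and Ptges3 (cytosolic, also known as the Hsp90 co-chaperone p23) can make prostaglandin E2 from it. The receptors Ptger2 (EP2) and Ptger4 (EP4) raise cyclic AMP in the cells that carry them, and Hpgd, 15-hydroxyprostaglandin dehydrogenase, inactivates the prostaglandin. COX-2 is known as the inducible cyclooxygenase of inflamed and malignant tissue, including mammary carcinoma.

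On mm10, in the GENCODE M21 annotation, Ptgs2 spans 150100031 to 150108227 of chromosome 1 on the plus strand, and Pla2g4a spans 149829618 to 149961290 of the same chromosome on the minus strand, so that enzymes of the first and second step lie 139 kb apart. Chromosome 2 holds Ptges (30889471 to 30929863, minus), Ptges2 (32395896 to 32405772, plus) and Ptgs1 (36230426 to 36252272, plus). Ptges3 lies on chromosome 10 (128058954 to 128077272, plus), Ptger2 on 14 (44988195 to 45003820, plus), Ptger4 on 15 (5206661 to 5244187, minus) and Hpgd on 8 (56294585 to 56321043, plus).

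RNA-seq covered 23 clones, each grown from 1 sorted 4T1 cell, 2 orthotopic tumors and 2 lung metastases, with 2 libraries of each, lettered A and B. Clones E and T were labelled as intravasating, meaning able to enter blood vessels when tested in a pool of clones, and the other 21 as non-intravasating. The clones were grown in high-glucose DMEM with bovine sera, and no drug treatment or engineered allele was given for any group. Each clone is a single line, the mice of the specimens were not described by strain, age or the clones they received, and the labels are silent on whether libraries A and B stem from different cultures and on whether tumor cells were separated from mouse tissue. P-values over libraries thus reflect only how far these libraries differed, possibly for technical reasons.

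The stretches just before the transcription start are shown for Ptgs2, Ptgs1 and Ptges, the 3 members that varied most among the clones. They are the 250 bases upstream of the RefSeq start on the GRCm38.p6 assembly (the build also called mm10), at chr1:150099781-150100030 on the plus strand for Ptgs2, chr2:36230176-36230425 on the plus strand for Ptgs1 and chr2:30903298-30903547 on the minus strand for Ptges. The Ptges start lies inside the longer gene span of GENCODE M21. Each is written 5′ to 3′ along the gene, and capitals mark matches to any of the motifs searched.
Ptgs2: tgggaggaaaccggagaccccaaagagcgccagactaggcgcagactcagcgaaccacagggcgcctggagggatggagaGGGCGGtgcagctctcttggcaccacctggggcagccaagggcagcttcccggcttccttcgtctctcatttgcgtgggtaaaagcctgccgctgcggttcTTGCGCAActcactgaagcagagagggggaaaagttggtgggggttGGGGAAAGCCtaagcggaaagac
Ptgs1: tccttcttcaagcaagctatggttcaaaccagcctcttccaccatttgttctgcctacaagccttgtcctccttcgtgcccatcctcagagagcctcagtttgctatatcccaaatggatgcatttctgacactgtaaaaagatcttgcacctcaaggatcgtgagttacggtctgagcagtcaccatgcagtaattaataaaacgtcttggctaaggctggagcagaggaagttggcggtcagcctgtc
Ptges: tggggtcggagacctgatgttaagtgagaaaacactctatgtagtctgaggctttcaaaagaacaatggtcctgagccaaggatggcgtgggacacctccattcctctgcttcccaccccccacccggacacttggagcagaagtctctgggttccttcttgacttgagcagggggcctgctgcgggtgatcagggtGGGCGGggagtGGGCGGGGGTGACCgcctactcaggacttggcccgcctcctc

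The motifs were searched on both strands of every RefSeq window of the same length, 32536 in all. The Ptgs2 window held a match to the NF-kB pattern (GGG and CC with any 5 bases between), found in 45.98% of all windows, a match to the C/EBP pattern TTNNGCAA, found in 9.57%, and a GC box GGGCGG, found in 33.0%. The Ptges window held 2 GC boxes, the second overlapping a match to the NF-kB pattern. The Ptgs1 window held no match to any of them. The TATA box TATAAA (12.3% of all windows), the cyclic AMP element TGACGTCA (1.56%), its part TGACG (17.9%), the E-box CACGTG (6.04%) and the AP-1 pattern TGANTCA (6.73%) were matched in none of these 3 windows. A match is a run of letters and no evidence of binding.

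Recovered depth was 8849257 to 31609870 reads per clone library, 12183058 to 17369960 per tumor library and 16327693 to 20368740 per lung library. The A libraries of both lung metastases had a read for 19868 and 20278 genes and their B libraries for 16604 and 16972, against at most 16807 in a clone library. Library pairs correlated at 0.981 to 0.998 over genes and no pair was identical. The pair of Tumor_2 was the lowest, and the next lowest, that of Lung_1, was at 0.994. Clone G stood apart, with the highest summed level of the 10 neutrophil marker genes found (913 normalized counts, against a clone median of 12.0) and of 11 macrophage markers (553 against 149) among the clones. S100a8 gave 93.6% of the first sum and Cd68 88.2% of the second, and the macrophage genes C1qa, C1qb, C1qc and Lyz2 had 0 to 1.31 counts in clone G. The libraries of Tumor_2, 1 of only 2 tumors, were thus the least alike over all genes. Among the members, its library B differed from library A in Ptges3 and Pla2g4a, for example, by 2.17 and 1.80 times. Values below are normalized counts (reads scaled for library size), as the mean of the 2 libraries of a clone or specimen ± SD, n = 2, unless a library is named. Differences are on the deposited log2 scale, which compresses low values.

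Of the 9 genes, the clones differed most in both cyclooxygenases and in Ptges. Among the 23 clones, Ptgs2 ran from 782 ± 49.0 in clone S to 28043 ± 2571 in clone G, a 35.9-fold span with a median of 5313. Ptgs1 ran from 45.8 ± 4.18 in clone L to 4701 ± 28.1 in clone G, a 103-fold span with a median of 534. Ptges ran from 8.82 ± 0.355 in clone L to 2368 ± 55.9 in clone C, a 268-fold span with a median of 403. On the deposited log2 scale, where low counts lie closer together, the ranges were 5.05 for Ptgs2, 5.57 for Ptgs1 and 5.47 for Ptges, wider than the ranges of 99.1%, 99.5% and 99.4% of tested genes, whose median range was 1.15.

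Variation between clones was far larger than variation between libraries for these 3 genes. The SD between clones was 1.36 log2 for Ptgs2, 1.61 for Ptgs1 and 1.56 for Ptges, and the SD between libraries of a clone was 0.12, 0.23 and 0.12. A limma F-test over the 46 clone libraries called all 8 members that passed the filter on low values, with adjusted p from 1.07e-28 for Ptges to 1.06e-06 for Ptger2. Ptger2 passed that filter only through the libraries of clone G, so its call was not independent of the filter. The background of that test was high, since 95.1% of the 13637 tested genes were called.

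**Figure D1:**
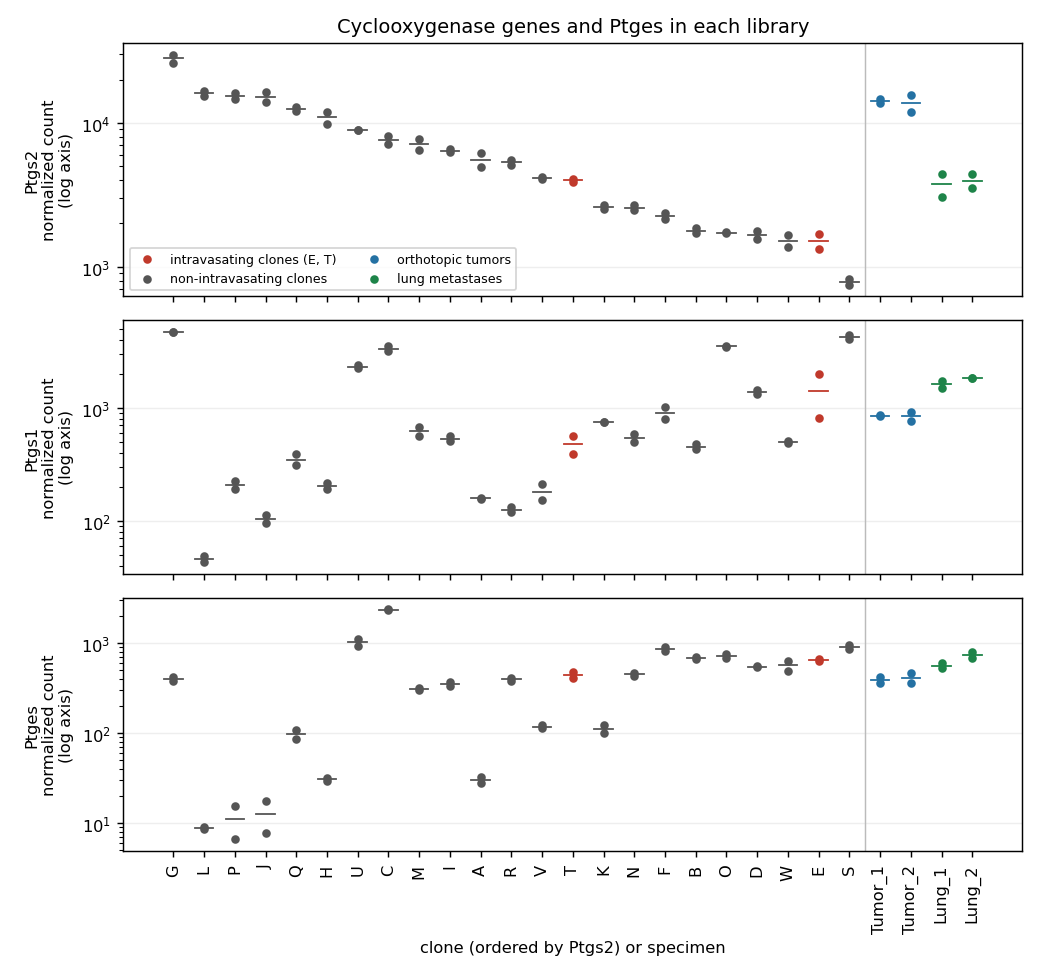
Normalized counts of Ptgs2, Ptgs1 and Ptges on log axes, with 1 point for each library and a bar at the mean of the 2 libraries, for the 23 clones ordered by Ptgs2 and the 4 specimens. Ptgs2 falls from 28043 in clone G to 782 in clone S, and the lowest Ptges values, 8.82 to 30.6, sit in clones A, H, J, L and P.

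In the order of Ptgs2 levels, clone G led, followed by L (16014 ± 1055), P (15321 ± 1006), J (15147 ± 1641) and Q (12491 ± 518). Clones W, E and S closed it. Of the 22 steps between neighbours, 5 differed in the limma contrasts at an adjusted p under 0.05, namely G above L, R above V, T above K, F above B and E above S. At the other 17 steps the neighbours did not differ beyond the spread of their libraries. Over all pairs of clones, Ptgs2 differed in 225, or 88.9%, against 39.8% over all tested genes and pairs.

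Ptgs1, the cyclooxygenase usually regarded as constitutive, had its own order. Clone G again led, followed by S (4266 ± 214), O (3500 ± 28.4) and C (3341 ± 231), and clones R, J (104 ± 10.9) and L were lowest. Clone S was thus lowest of 23 in Ptgs2 and second in Ptgs1, and clone L second in Ptgs2 and lowest in Ptgs1. Neighbours differed at 3 of 22 steps (U above D, Q above P and J above L), and 83.8% of clone pairs differed. The 2 libraries of clone E disagreed in this gene, at 2000 and 806 counts, a ratio of 2.48.

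Counted per kilobase of transcript, Ptgs2 made up most of the cyclooxygenase RNA in 20 of 23 clones. Its share of the summed level of both genes had a median of 83.5% and passed 90% in 10 clones. The share was highest in clones L (99.7%), J (99.2%) and P (98.4%). Clones S (13.5%), O (29.5%) and E (47.6%) had more Ptgs1 than Ptgs2 by their means, and clone D was near parity at 50.4%. The place of clone E rested on library A, since its libraries gave 41.7% and 58.1%, and those of clone D 48.0% and 52.8%.

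**Figure D2:**
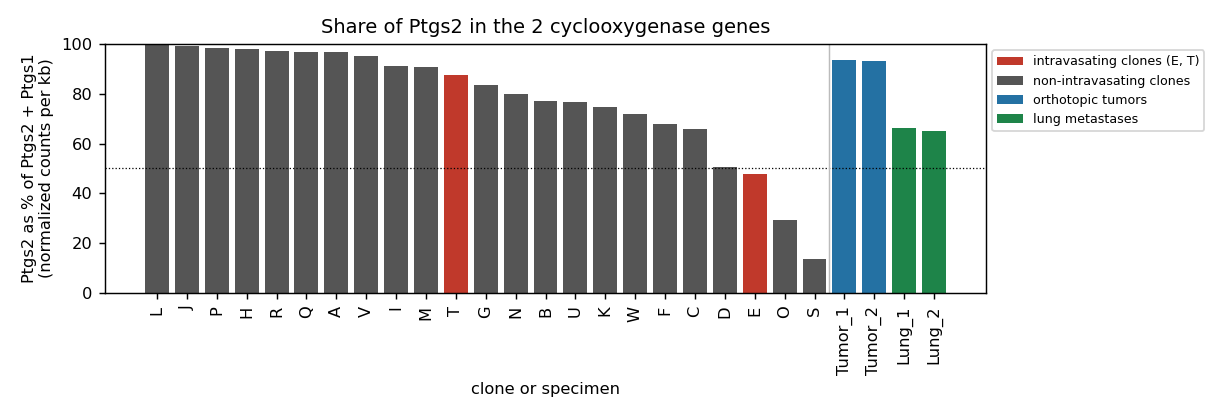
Ptgs2 as a percentage of the summed Ptgs2 and Ptgs1 level per kilobase, 1 bar for each clone, tumor and lung metastasis, with a dotted line at parity. Clones E, O and S lie below the line, the tumors reach 93.4% and 93.2%, and the lung metastases 66.4% and 64.9%.

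Ptges followed Ptgs1 and ran against Ptgs2 across the clones. In the 5 clones with fewer than 50 counts of Ptges (A, H, J, L and P), Ptgs2 lay between 5542 and 16014 and Ptgs1 between 45.8 and 207. In the 6 clones lowest in Ptgs2 (B, D, E, O, S and W), Ptges lay between 548 and 916, while in the 6 highest (G, H, J, L, P and Q) it lay between 8.82 and 403. Single clones departed from this opposition. Clones C and U had the most Ptges (2368 and 1024 ± 122) together with Ptgs2 above the median, and clones K and V lay below the median in both genes. Clone G had the most of both cyclooxygenases but only 403 ± 26.2 counts of Ptges, the median of the 23 clones.

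As a description over 23 clone means, the correlation of Ptges was 0.78 with Ptgs1 (Spearman 0.76) and -0.55 with Ptgs2 (Spearman -0.60). Without clone G the Pearson values were 0.82 and -0.63. Ptgs1 and Ptgs2 correlated at -0.33, and at -0.58 without clone G. These are 3 of 28 member pairs computed, and the points share the library preparation and size scaling. In the order of Ptges levels the neighbours differed at 4 of 22 steps, C above U, M above V, Q above H and A above J, and 86.2% of clone pairs differed.

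**Figure D3:**
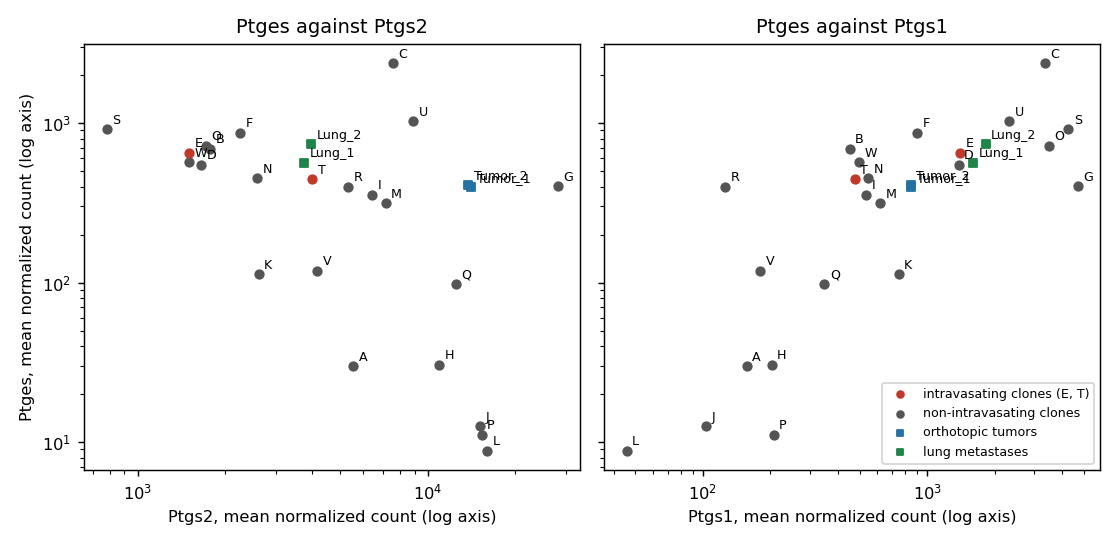
Mean normalized counts of Ptges against Ptgs2 (left) and against Ptgs1 (right) on log axes, 1 lettered point for each clone and squares for the specimens. Ptges rises with Ptgs1 across the clones, while clones L, P and J combine low Ptges (8.82 to 12.6) with high Ptgs2 (15147 to 16014).

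Pla2g4a, which supplies the substrate, varied less. It ran from 682 ± 48.4 in clone S to 2901 ± 389 in clone M, a 4.25-fold span with a median of 1761. Only the step from U to S differed among the 22 neighbours, so clone S stood below all others while the rest formed a continuous series, although 58.5% of clone pairs differed. Clone S therefore had the least RNA both of Pla2g4a and of Ptgs2. The correlation of Pla2g4a over the clones was 0.56 with Ptgs2 and -0.55 with Ptges.

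The other synthases spread less than Ptges. Ptges2 ran from 118 ± 9.67 in clone B to 538 ± 2.64 in clone G, a 4.55-fold span with a median of 167. Its log2 range of 1.76 was wider than that of 81.4% of tested genes. Clone G stood above the next clone, Q (230 ± 28.0), and no other neighbours differed. Ptges3 ran from 3491 ± 91.6 in clone O to 6815 ± 88.9 in clone K, a 1.95-fold span, and no neighbours differed. A gene copy named Ptges3-ps is annotated, so reads of Ptges3 could be split with it and its level is uncertain. Per kilobase, the median clone had 2274 normalized counts of Ptges3, 1160 of Ptgs2, 276 of Pla2g4a, 137 of Ptgs1, 103 of Ptges and 33.0 of Ptges2.

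Ptger4 and Ptger2 were low in the clones. Ptger4 ran from 2.93 ± 0.674 in clone L to 119 ± 1.93 in clone G, with a median of 39.6. Clone G stood above the next clone, W (76.7 ± 24.8), and no other neighbours differed. Ptger2 had a read in 24 of 46 clone libraries and 70 reads in all. Its highest level was again in clone G, at 13.9 and 13.1 counts in its 2 libraries, above the 3.87 ± 0.0504 of clone J, the only step that differed. No library of another clone reached the filter of 10 counts. Ptger2 was thus tested among the clones only because clone G was high, and this step adds no separate support. Of the leukocyte marker genes that are high in clone G, S100a8, Cd68 and Cd53 made up most. S100a9, Mrc1, Itgam and Coro1a (26.1) were also highest in clone G. In contrast, Lyz2 was at 1.31 counts and Ptprc, which all leukocytes carry, at 0.464. Whether clone G held leukocytes was not tested.

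Hpgd was nearly absent. It had 2 reads over all 46 clone libraries, 1 each in clones D and F, and did not pass the filter for testing. With 0 reads in a library, up to 3 reads could have been missed at this depth. Per kilobase the median clone had 5.96 normalized counts of Ptger4, 0.105 of Ptger2 and 0 of Hpgd. Counting was not stated to use strand, so reads of Ptger2 or Ptger4 and of genes on the opposite strand there (Ttc33 for Ptger4, Gm49364 and Gm17173 for Ptger2) cannot be told apart.

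**Figure D4:**
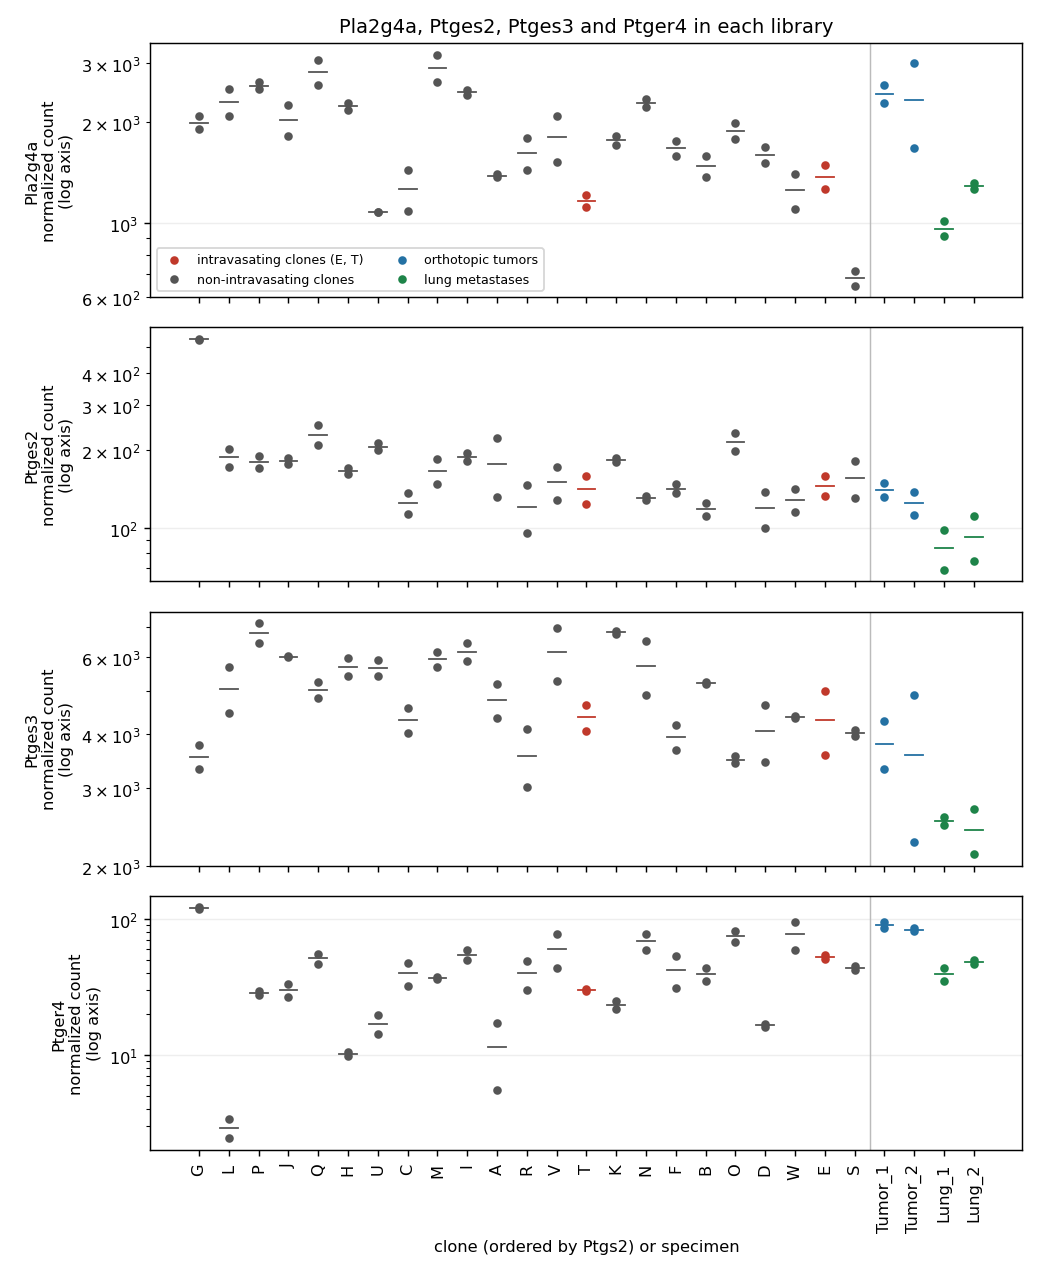
Normalized counts of Pla2g4a, Ptges2, Ptges3 and Ptger4 on log axes, with 1 point for each library and a bar at the mean of the 2 libraries, in the clone order of Ptgs2. Clone G tops Ptges2 (538) and Ptger4 (119), clone S is lowest in Pla2g4a (682), and the lung metastases lie below all 23 clones in Ptges2 and Ptges3.

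The genes whose levels over the 23 clones were most like each member were taken for the 4 members with a log2 range of at least 2. Nearest to Ptgs2 were Taf4b (Pearson 0.92), a TFIID subunit of transcription initiation, 9130008F23Rik (0.92) and Zdhhc13 (0.92), a protein palmitoyltransferase. Nearest to Ptgs1 were Gngt2 (0.87), a G protein gamma subunit, Prkch (0.86), protein kinase C eta, and Pld1 (0.83), phospholipase D1. Nearest to Ptges were Plekho2 (0.91), Adipor2 (0.88), an adiponectin receptor, and C230081A13Rik (0.88). Nearest to Ptger4 were Gpatch1 (0.83), Gprin3 (0.78) and Pmp22 (0.78), a myelin protein. These values describe 23 clones and were the highest of all tested genes by choice.

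Among other genes of the pathway, the clones differed in 5 of 6 tested prostanoid synthases, 6 of 6 genes of prostaglandin transport and breakdown, 9 of 9 other phospholipases A2 and 25 of 25 regulators of Ptgs2 transcription and RNA, beside the background of 95.1%. Slco2a1, the prostaglandin uptake transporter, was high throughout, from 5259 counts in clone Q to 17105 in clone C, and its correlation with Ptges was 0.71. Abcc4, an exporter of prostaglandins, ran from 134 in clone F to 1019 in clone J, and its correlation with Ptgs2 was 0.77. Pla2g7, which breaks down platelet-activating factor, ran from 6.51 in clone L to 580 in clone S, and its correlation was 0.74 with Ptges and -0.73 with Ptgs2.

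The series asked which genes are higher in the intravasating clones. No member was called in E and T against the 21 other clones in limma on clone means (0 of 7 tested), and the share called over all 13152 tested genes was 0%. At an unadjusted p under 0.05 there were 102 genes and 0 members. The differences were -1.02 ± 0.93 (SE) for Ptgs2, 0.89 ± 1.08 for Ptges, 0.33 ± 1.13 for Ptgs1, -0.46 ± 0.33 for Pla2g4a, -0.20 ± 0.22 for Ptges3, -0.19 ± 0.27 for Ptges2 and 0.07 ± 0.33 for Ptger4, each with an adjusted p of 1.00. Ptger2 and Hpgd did not pass the filter.

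The study's own rule took genes that were higher in both E and T than in at least 50% of the other clones. Ptges met it, lying above 15 of 21 non-intravasating clones in E and above 12 in T, and no other of the 7 members tested did. The rule was met by 26.1% of all tested genes. Ptgs1 in E lay above 16 of the 21 clones and in T above 9. Ptgs2 lay above 1 in E and 8 in T, and Pla2g4a above 4 and 2.

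The 2 intravasating clones themselves differed in both cyclooxygenases, in opposite directions. Ptgs2 was 1688 and 1317 counts in the libraries of E and 4100 and 3906 in those of T, with no overlap. The difference, E minus T, was -1.39 ± 0.13 (adjusted p = 3.59e-10, limma). Ptgs1 was 2000 and 806 in E and 563 and 387 in T, also with no overlap, a difference of 1.34 ± 0.20 (adjusted p = 6.82e-06). That difference was 0.71 without library A of E and 1.96 without library B, and stayed called either way.

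Ptges was 634 and 673 in E and 482 and 410 in T, a difference of 0.50 ± 0.12 (adjusted p = 0.00278). The call was lost without library B of T (0.40, adjusted p = 0.0600). Ptger4 was 50.4 and 54.5 in E and 29.3 and 30.7 in T, a difference of 0.39 ± 0.15 that missed the threshold (adjusted p = 0.0561). The other 4 tested members differed by at most 0.23 log2 between E and T and were not called. The 3 of 8 members called compare with 28.7% of 13637 genes.

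Between E and T, 5 of 13 genes of the prostaglandin E2 and cyclic AMP response were higher in E and 2 lower. Over all tested genes, 15.3% were called higher in E and 13.4% lower. Rgs2 (1.08), a regulator of G protein signalling, Vegfa (1.05) and the nuclear receptor Nr4a2 (0.65) were higher in E, and the EGF receptor ligand Areg (-0.54) was lower. Cbr3, a carbonyl reductase, was higher in E by 1.28, and Abcc4 lower by -1.09. Of 21 inflammatory cytokine genes, 2 were higher and 6 lower, with Lcn2 at 2.47 and Ccl2 at -1.47. The list medians were 0.23 and -0.12, and the median over all genes was 0.01.

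The specimens were compared with the clones and with each other over means of the 2 libraries. In bulk RNA, fewer cells of a type and less RNA per cell cannot be told apart. The specimens also differed from the clones in markers of host cells. Summed over 11 genes, macrophage markers were 794 and 1012 counts in the tumors and 1368 and 3011 in the lung metastases, against 86.3 to 553 in the clones. Lyz2 made up much of this, at 337 and 517 counts in the tumors and 851 and 1831 in the lungs, against at most 6.48 in a clone. Summed over 9 genes, pan-leukocyte markers were 120 and 150, then 201 and 585, against 6.66 to 269. The 12 fibroblast markers summed to 854 and 898 in the tumors, 1746 and 4653 in the lungs and 187 to 3983 in the clones, where Postn alone reached 3664 in 1 clone. Pdgfra made up most of the specimen sums, at 569 and 512 in Tumor_1 and Tumor_2 and 1492 and 3394 in Lung_1 and Lung_2. The cultured clones carried Pdgfra as well (median 326, highest 1756), so these sums are not specific to host cells. Of 9 tested fibroblast markers, 6 were called higher in the tumors and 8 in the lungs than in the clones. Over all tested genes, 4.8% and 10.9% were called higher. Among these markers Col3a1, at most 1.61 counts in a clone, was tested only through the specimens. Col1a1, a defining collagen gene of fibroblasts, had 52.4 and 53.7 counts in the tumors and 45.5 and 337 in the lungs, against at most 11.5 in a clone.

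The 12 epithelial markers of 4T1 cells summed to 30397 and 33238 in the tumors and 16357 and 23165 in the lung metastases, against 16781 to 105732 in the clones. Summed over 13 genes, lung epithelium markers were 296 and 244 counts in Lung_1 and Lung_2, against 291 to 922 in the clones. Lamp3 (140 and 122) and Aqp5 (112 and 65.2) were the highest there. The cultured clones carried both (medians 304 and 67.0), so this sum is not specific to lung epithelium. In the same 2 specimens Sftpc, the surfactant gene that defines alveolar type II cells, had 1.72 and 4.54 counts. Scgb1a1, which defines club cells, had 1.93 and 1.65, and Scgb3a2 was at 0. The part of host cells in the differences below was not tested.

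In the tumors, Ptgs2 was high. Its libraries held 14573 and 13680 counts in Tumor_1 and 15699 and 11861 in Tumor_2. The means of the 2 tumors, 14127 and 13780, lay above 19 of 23 clones and below 4. The difference from the clones was 1.54 ± 0.90 and was not called (adjusted p = 0.363, limma). None of 8 tested members was called in tumors against clones, where 6.52% of 13677 genes were (4.8% higher and 1.73% lower), and 3 members and 2692 genes had an unadjusted p under 0.05. Those 3 members were Ptger2 (0.51 ± 0.16, adjusted p = 0.0596), Ptger4 (0.67 ± 0.31, adjusted p = 0.221) and Ptges3 (-0.45 ± 0.21, adjusted p = 0.224).

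Ptger4 was 93.9 and 84.8 in Tumor_1 and 85.4 and 80.6 in Tumor_2, above 22 of 23 clones, with clone G higher. No tested member lay outside the range of all 23 clones in both tumors, while 4.39% of tested genes lay above and 2.08% below it. Ptger2 was 2.85 and 8.12 in Tumor_1 and 4.85 and 22.2 in Tumor_2, so that library B of Tumor_2 carried most of it. Ptger2 was called without clone G (0.54, adjusted p = 0.00887). The highest mean of the remaining clones was 3.87, so Ptger2 was then tested only through the specimens. That call was thus not independent of the filter and adds no separate support. Without library B of Tumor_2 the difference of Ptger2 was 0.36 (adjusted p = 0.281). Hpgd had 0 reads in all 4 tumor libraries.

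In the lung metastases, 1 member was called higher than the clones and 1 lower, of 8 tested, beside 17.3% of 13677 genes called (10.9% higher and 6.4% lower). Ptger2 was 19.8 and 14.1 in Lung_1 and 43.0 and 28.0 in Lung_2, all above the highest clone, a difference of 1.02 ± 0.16 (adjusted p = 6.19e-05). Among the clones only G, at a mean of 13.5, reached the filter, and the next, J, was at 3.87. Ptger2 thus passed the filter only with the specimens. Its call was therefore not independent of the filter and adds no separate support. Lung_2, the specimen with more Ptger2, also had more macrophage, pan-leukocyte and fibroblast marker counts than Lung_1, and the part of these cells was not tested. Ptges3 was 2582 and 2476 in Lung_1 and 2123 and 2689 in Lung_2, below every clone, a difference of -0.97 ± 0.21 (adjusted p = 0.00180). The Ptges3 call was lost without Lung_1 (adjusted p = 0.0521) or without Lung_2 (adjusted p = 0.0938).

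Ptges2 also lay below all 23 clones in both lung metastases, at 69.2 and 98.8 in Lung_1 and 74.5 and 111 in Lung_2, but its difference of -0.66 ± 0.26 was not called (adjusted p = 0.0755). It was called without clone G (-0.60, adjusted p = 0.0107). For comparison, 5.88% of tested genes lay below and 8.06% above all clones in both lungs. Ptgs1 (1.38 ± 1.06), Ptges (1.04 ± 1.03), Ptgs2 (-0.30 ± 0.90), Pla2g4a (-0.59 ± 0.33) and Ptger4 (0.11 ± 0.31) were not called. Hpgd had reads in library A of each lung metastasis only, at 0.898 and 2.48 counts. Both specimen groups were set against the same clones.

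**Figure D5:**
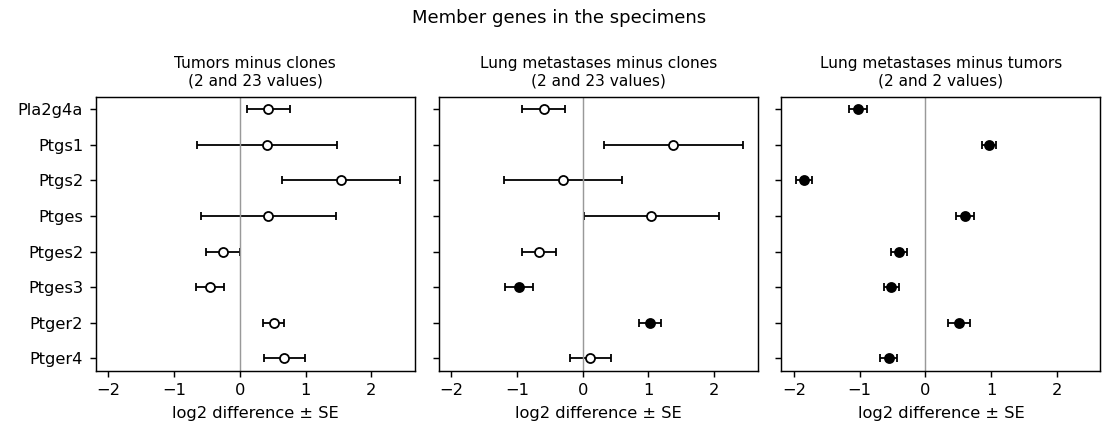
Log2 difference ± SE of the 8 tested members in tumors minus clones (left), lung metastases minus clones (middle) and lung metastases minus tumors (right); filled points have an adjusted p under 0.05 in limma. None is filled on the left, Ptges3 and Ptger2 are filled in the middle, and all 8 on the right, where Ptgs2 is at -1.85 and Ptgs1 at 0.96.

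Between the lung metastases and the tumors, all 8 tested members differed in limma on the 4 specimen means, 3 higher in the lungs and 5 lower. Over all 13240 tested genes, 32.3% were called (16.9% higher and 15.4% lower), and 69.6% did not overlap between the 2 lungs and the 2 tumors. The members' median difference was -0.46 and that of all genes 0.01. With 2 specimens a group, only Ptgs1, Ptgs2 and Pla2g4a stayed called whichever specimen was left out, and leaving out library A of Tumor_2 left 2 members called, Ptgs1 and Ptgs2. With B libraries only, Ptgs2 alone was called, with Ptgs1 at 1.06 (adjusted p = 0.0525) and Pla2g4a at -0.84 (adjusted p = 0.159). Epithelial markers moved with these calls, 10 of 12 being lower and 1 higher in the lungs, and 5 of 9 tested macrophage markers and 2 of 9 fibroblast markers were higher (1 fibroblast marker was lower). The macrophage marker C1qa and the fibroblast marker Fap reached 10 counts in both lung metastases but in neither tumor, so they could only come out higher.

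The cyclooxygenases moved in opposite directions. Ptgs2 was 3074 and 4416 counts in Lung_1 and 4394 and 3550 in Lung_2, against 11861 to 15699 in the tumor libraries, a difference of -1.85 ± 0.12 (adjusted p = 4.49e-05). Ptgs1 was 1499 and 1720 in Lung_1 and 1820 and 1825 in Lung_2, against 770 to 922 in the tumors, a difference of 0.96 ± 0.11 (adjusted p = 0.000591). No library of one group overlapped the other for either gene. Per kilobase, the Ptgs2 share of both genes was 93.4% and 93.2% in the tumors and 66.4% and 64.9% in the lung metastases.

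Ptges was 525 and 603 in Lung_1 and 680 and 793 in Lung_2, against 358 to 466 in the tumors, a difference of 0.61 ± 0.14 (adjusted p = 0.0108). Pla2g4a was 911 and 1007 in Lung_1 and 1314 and 1259 in Lung_2, against 1665 to 2992 in the tumors, a difference of -1.03 ± 0.14 (adjusted p = 0.00140). Ptgs1 and Ptges were thus both higher in the lungs, and Ptgs2 and Pla2g4a both lower. Ptges3 differed by -0.52 ± 0.12 and Ptges2 by -0.40 ± 0.12, with adjusted p of 0.0106 and 0.0359. Library B of Tumor_2, at 2264 counts of Ptges3, lay within the lung range.

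The receptor genes Ptger4 and Ptger2 went opposite ways. Ptger4 was 43.1 and 34.9 in Lung_1 and 46.4 and 49.5 in Lung_2, against 80.6 to 93.9 in the tumors, a difference of -0.56 ± 0.12 (adjusted p = 0.0104). Ptger2 differed by 0.51 ± 0.17 (adjusted p = 0.0476), with library B of Tumor_2 (22.2 counts) above both libraries of Lung_1.

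Other genes of the pathway were also called in lungs against tumors, where 32.3% of all tested genes were. Slco2a1 was 16467 and 18611 counts in the lung metastases and 6889 and 6649 in the tumors, a difference of 1.36 ± 0.14 (adjusted p = 0.000342, limma), and it was the only call among 6 transport and breakdown genes. Of 5 other prostanoid synthases, 2 were higher in the lungs, Ptgis (1.00), the prostacyclin synthase, and Cbr1 (0.40), and none lower. Of 10 other phospholipases A2, 3 were higher, Pnpla8 (1.03), Pla2g5 (0.65) and Pla2g2d (0.54), and none lower. Of 11 genes of other arachidonate routes, 2 were higher, the acyl-CoA synthetase Acsl4 (1.23) and the leukotriene receptor Cysltr2 (0.82), and 2 lower, Faah (-0.53) and Aloxe3 (-0.45). Against the clones, Ptgis was higher in the lungs by 1.38, and Tbxas1, the thromboxane synthase of platelets and macrophages, by 0.79. Ptgis, Pla2g5, Pla2g2d and Cysltr2 reached the filter of 10 counts in the lung metastases but in neither tumor. They could therefore only come out higher in the lungs. The same holds for Ptgis against the clones, where its highest clone mean was 4.40. Tbxas1, with a highest clone mean of 9.07, also reached the filter only in specimens, so its call against the clones was not independent of the filter.

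Of 23 tested regulators of Ptgs2, 2 were higher and 6 lower in the lungs than in the tumors, a share near the 32.3% of all genes, with Cebpd at -1.20, the NF-kB genes Nfkb2 at -0.91 and Nfkbia at -0.81, and Zfp36, which destabilises AU-rich mRNAs, at -0.68. Of 21 inflammatory cytokines, 1 was higher and 17 lower, with a list median of -1.02 and Il1a (-4.90), Cxcl5 (-4.84), Cxcl1 (-3.75) and Cxcl3 (-3.01) furthest. Of 14 genes of the cyclic AMP response, 3 were higher and 5 lower, with the EGF receptor ligands Areg (1.29) and Ereg (1.16) higher and Nr4a2 (-0.97) lower.

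In tumors against clones, 5 of 21 cytokines were higher and none lower, among them Cxcl5 (4.53), Cxcl3 (3.19), Cxcl2 (2.09) and Tnf (1.03). Over all tested genes, 4.8% were called higher and 1.73% lower there. The regulators Cebpd (2.19) and Fos (0.78) were higher, as were Dusp1 (0.96) and Ereg (0.64) of the cyclic AMP response. Ereg had at most 0.976 counts in a clone and 4.60 in Tumor_1. It was tested only through Tumor_2 (10.8) and the lung metastases, so its call was not independent of the filter. In lungs against clones, the cytokine calls were Il6 (1.12) and Il1rn (1.08), both higher, beside 10.9% of all tested genes called higher there. Macrophage markers rose in the same contrasts, 6 of 9 in the tumors and 7 of 9 in the lungs, as did fibroblast markers, 6 of 9 and 8 of 9, and their part in these cytokine values was not tested. C1qa, C1qb, C1qc, Lyz2 and Col3a1 stayed under 10 counts in every clone (at most 6.48, for Lyz2). They were tested only through the specimens, so these marker counts were not independent of the filter.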

How the data were processed

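Per the labels' protocols, column-purified, DNase-treated RNA (100 ng) was amplified with a NuGEN Ovation kit and sequenced in 76-base reads. The tools Bowtie2, HTSeq and DESeq and the build mm10 are named in the submitters' processing notes without versions. Their settings, including strand, were not given in the sources used here. The authors deposited log2 values, 1 table of 23481 genes by 54 libraries, on a variance-stabilising curve with 5.03 as the value of a gene without reads. Inverting that curve gave normalized counts, and whole reads (within 0.01) for 100% of values, from which depth was read. Depth limits Ptger2 and Hpgd most.

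Tests used limma 3.58.1 in R 4.3.3 (trend, 2-sided, Benjamini-Hochberg over all tested genes, threshold 0.05) on the deposited log2 values. The plan had allowed for linear values that need log2(value + 1), and because the values were already on a log2 scale that transform became an alternative. Genes needed a normalized count of 10 in 2 libraries (tests among clone libraries) or in 2 clone or specimen means (other tests). A gene could pass through 1 group alone, which can set its direction in advance. Tumors and lung metastases were each set against clones in 1 fit of 27 means. Tests were checked on simulated data. Per-kilobase levels used GENCODE M21 lengths, and promoters came from RefSeq. Alternatives were no filter, a filter of 50 counts, log2(count + 1), no trend, 1 library letter only, a replicate block, and leaving out clones, specimens or libraries.

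Members and gene lists were chosen with earlier results of these data known. The genes named were all members, for each member with a log2 range of at least 2 the 3 genes most correlated with it over clone means, and per list and comparison up to 4 called genes with the largest difference. The clone values of Slco2a1, Abcc4 and Pla2g7 were named after they were seen. Of 238 list entries, 237 matched a row.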

Additional observations from a re-analysis of the deposited data

How the results depend on the processing

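Counts below are of members called. In tumors against clones the count of 0 became 1 with no filter, with B libraries only, and without clone G, and lay at 0 to 2 when 1 specimen or specimen library was left out. In lung metastases against clones the count of 2 became 4 with no filter and 1 with a filter of 50 counts, and lay at 1 to 3 in the same leave-outs. In lung metastases against tumors the count of 8 became 5 with no filter and 1 with B libraries only (Ptgs2, -1.67, adjusted p = 0.0293, limma), and lay at 2 to 8. The cause was not tested. The genes called moved as well: in tumors against clones 2249 with no filter, 384 with the filter of 50 counts, 265 with A libraries only and 77 without Tumor_2, against 892; in lungs against clones 8068 with no filter, 539 without Lung_1 and 384 without Lung_2, against 2367; in lungs against tumors 2645 with no filter, 325 with B libraries only and 661 without library A of Tumor_2, against 4276. Some signs turned, in differences that were not called: Ptgs1 in intravasating clones became -0.072 with B libraries only and -0.33 to 1.00 without clone E or T, Ptger4 there -0.13 to 0.26, and between E and T, leaving out a library, Ptges2 lay at -0.10 to 0.17 and Ptges3 at -0.28 to 0.20. With the library letter as a replicate block, E against T gave 4 member calls in place of 3, Ptger4 being added (adjusted p = 0.0460, limma), and the F-test over clones kept its count of 8. Letters showed no common pairing of the libraries: over all pairs of clones the median correlation of their A minus B differences was 0.08 (-0.50 to 0.64). It was over 0.1 in 113 of 253 pairs, and whether some clones shared a culture or day was not tested. Ptges in E against T was not called on log2(count + 1) (0.55, adjusted p = 0.0923). The leave-outs of clone G and of specimen libraries were chosen after seeing the data. Where 1 specimen remained in a group, it was assumed to vary like the others. Over all alternatives, 411 single-gene values kept direction and side of the threshold, 38 lost the call, 12 gained it and 7 turned sign. Depth limits Ptger2, with 70 reads over 46 clone libraries, and Hpgd, with 2.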
